A study of Homo sapiens with 24 samples.

Results

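The control RNA of PC3 and DU145 cells was compared within the series, without any treated RNA. Both are established, castration-resistant prostate cancer (PCa) cell lines, PC3 from a bone metastasis and DU145 from a brain metastasis. Each two-colour Agilent array carried the control RNA of 1 cell line in the Cy3 channel, and the 11 arrays of PC3 (7) and DU145 (4) were taken of 24 in the series by their cell line label. The arrays are of 2 designs, which were scaled and fitted apart, and a difference was kept where both designs showed it. In the first design the controls were cells of the genistein experiment (1 array of each line), labelled as given no treatment where the study's methods name a vehicle, cells transfected with control miRNA in the miR-145 experiment (1 array of each line), and PC3 cells transfected with control miRNA in the miR-23b, miR-24 and miR-27b experiments (3 arrays). In the second design they were cells given control miRNA in the miR-143 experiment and cells given control siRNA in the si-GOLM1 experiment (1 array of each line in both). No label says that these were separate cultures, so p-values measure the spread between arrays, which may be technical.

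PC3 and DU145 are the standard models of PCa that grows without androgen. Cell lines carry fixed gene losses and silenced genes, so that 2 lines of one tumor type can differ in adhesion genes, homeobox genes and secreted factors. PC3 is known to lack alpha-catenin, and DU145 to carry altered RB1, CDKN2A and STK11. The measurement was baseline mRNA and long non-coding RNA (lncRNA) in both lines. All values called levels below are log2 of the processed Cy3 signal minus log2 of the array's 75th percentile, so that a level of 0 is the 75th percentile of that array.

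The control RNA was first checked for sharing between arrays. The 3 PC3 controls of the miR-23b, miR-24 and miR-27b experiments differed from each other with an SD of 0.206 to 0.222 on the log2 scale. Other PC3 pairs and the DU145 pair of the first design differed with an SD of 0.571 to 0.734, and the pairs of 1 line in the second design with 0.361 and 0.373. The treated channels of the same 3 arrays differed with an SD of 0.49 to 0.91. The labels do not say that the 3 controls share RNA, and their arrays lay on 1 slide. The other PC3 arrays and both DU145 arrays of the first design lay together on another slide. For the 3 controls the slide and the experiments cannot be told apart. These 3 control channels were taken as 1 shared control and counted as 1 sample. That left 3 PC3 against 2 DU145 samples in the first design and 2 against 2 in the second. Levels of the first design are given below in the order genistein, miR-145 and shared control for PC3 and genistein and miR-145 for DU145, and those of the second in the order miR-143 and si-GOLM1.

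No spot was saturated among the 58717 non-control spots of an array. Between 53.2% and 67.6% of spots were well above background, a call of the scanner software. In the first design this share was 64.7% to 67.6% on the DU145 arrays and 56.5% to 59.2% on the PC3 arrays, and its part in the results of that design was not tested. The epithelial markers EPCAM, KRT8, KRT18 and CDH1 were well above background on all 11 arrays. The fibroblast markers COL1A2, COL3A1, DCN and PDGFRB and the endothelial marker VWF were well above background on 0 of 11 arrays. COL1A1, a collagen gene of the fibroblast list, was well above background on all 11 arrays and not called, at 3.18 ± 0.91 and 2.31 ± 0.12 as PC3 minus DU145. The endothelial marker CDH5 was also well above background on all 11 arrays and not called, at -0.14 and -0.72. Of 2 tested leukocyte markers, 1 was well above background on all 11 arrays and 0 were called. Other stromal markers were well above background mostly on PC3 arrays of the first design, the endothelial PECAM1 on 5 of 5 and KDR on 2 of 5, and the fibroblast LUM on 3 of 5. On the DU145 arrays of that design PECAM1 was measured on 1 of 2 and the other genes on 0, and in the second design PECAM1 was measured on 1 PC3 array and KDR and LUM on none. Their part in the results was not tested.

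Of 14382 genes tested in both designs, 886 (6.16%) were higher in PC3 and 980 (6.81%) were higher in DU145 in both, 13.0% in all. The call needed an adjusted p under 0.05 by limma with Benjamini-Hochberg adjustment and a log2 difference of at least 1 in each design. In the first design alone 7.58% of probes were higher in PC3 and 10.2% in DU145, and in the second 13.4% and 13.9%. The median difference of all genes was -0.08 in the first design and -0.02 in the second, written as PC3 minus DU145. The differences of the 2 designs had r = 0.775 over genes, which do not count as replicates of each other, and 75.4% of genes had the same sign. Of the 12067 genes well above background on all 11 arrays, 1103 (9.14%) were called, and the other called genes were dim on at least 1 array. Another 58 genes were called in both designs in opposite directions. For 6393 of the 14382 genes (44.5%) the lines did not overlap in either design, whatever the size of the difference. A lack of overlap given for a gene below is therefore common over all genes. The 1866 called genes came to 1232 without the DU145 array of the miR-145 experiment, with 552 higher in PC3, and to 1200 without the shared control sample. Without the DU145 array of the genistein experiment, 651 genes were higher in DU145.

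**Figure D1:**
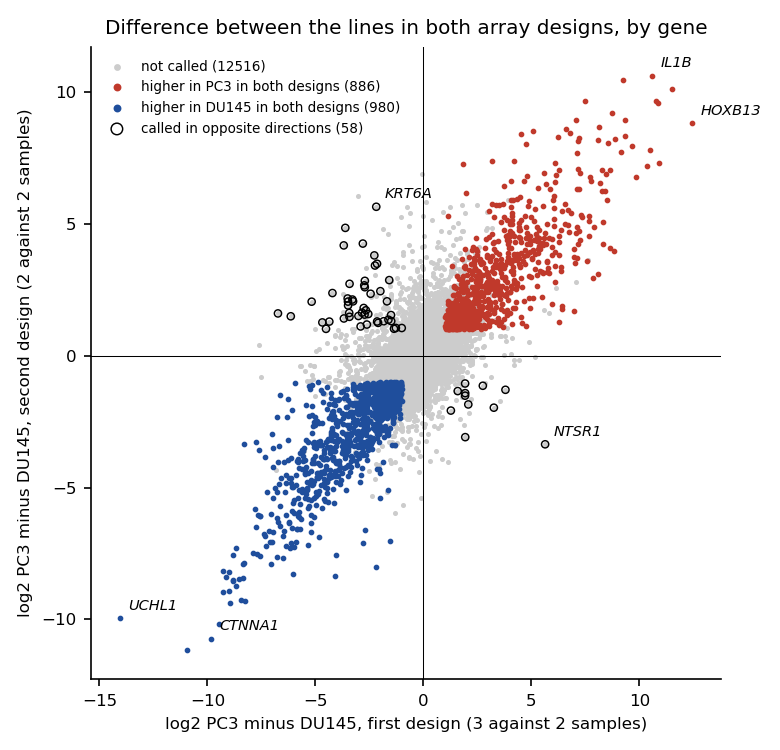
Log2 difference PC3 minus DU145 of each tested gene in the first design (x axis) and the second design (y axis); each point is 1 gene. The 886 red genes and 980 blue genes lie in the same direction in both designs, and the 58 circled genes were called in opposite directions.

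The 12 genes with the largest differences toward PC3 included IL1B, KEAP1 and HOXB13. The levels of IL1B, the inflammatory cytokine interleukin-1 beta, were 4.27, 3.38 and 1.87 in PC3 against -7.54 and -7.33 in DU145 in the first design. The second design gave 4.02 and 4.94 in PC3 against -6.05 and -6.21. All PC3 arrays lay far above all DU145 arrays, where the probe was not well above background. Where a line had no array well above background, only a bound can be given, and it compares the bright line with the lowest signal that was well above background on each array of the dim line. No control RNA was measured in the other dye, so the bounds and differences are open to dye bias. Whether a probe failed in 1 line, for example through a sequence variant, was not tested. A bound here and below therefore describes the signal of the probe. For IL1B the bound was at least 434-fold higher in PC3 in the first design and at least 460-fold in the second, with limma adjusted p = 0.000276 and 0.000409. The probe entered the test through PC3 alone, so that these p-values set signal against background. KEAP1 encodes the adaptor that marks the transcription factor NRF2 for degradation. Its levels in PC3 were 1.61, 1.76 and 1.55 in the first design and 2.50 and 2.55 in the second. In DU145 they were -7.87 and -7.55, and -6.56 and -6.23, none of them well above background. KEAP1 was at least 150-fold and at least 118-fold higher in PC3, measured by 1 probe. HOXB13, a homeobox factor of the prostate, had levels of 6.09, 3.30 and 4.91 in PC3 against -7.68 and -7.69 in DU145 in the first design. In the second design they were 2.33 and 1.94 against -6.86 and -6.49. HOXB13 was at least 1313-fold and at least 90.4-fold higher in PC3.

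Of the other genes named toward PC3, PTX3, a pentraxin of innate immunity, was at least 244-fold and at least 203-fold higher in PC3. INHBA and INHBB, the beta subunits of activins, were measured on every array of both lines, with differences of 8.72 ± 0.47 (SE) and 9.20 ± 0.23 for INHBA and 8.11 ± 0.54 and 8.65 ± 0.36 for INHBB. SULF2, an extracellular sulfatase of heparan sulfate, differed by 11.50 ± 0.72 in the first design, where 1 of 2 DU145 arrays was well above background, and was at least 253-fold higher in PC3 in the second. AGR2, a protein disulfide isomerase of secretory cells, differed by 9.33 ± 1.11, again with 1 of 2 DU145 arrays measured, and was at least 211-fold higher in the second design. ADGRF1, an adhesion G protein-coupled receptor, was at least 568-fold and at least 176-fold higher in PC3, and TSPYL5 at least 390-fold and at least 170-fold. The circadian repressor BHLHE41 was at least 161-fold higher in the first design and differed by 8.22 ± 1.02 in the second, where 1 of 2 DU145 arrays measured it. The histone H4 gene H4C5, whose near-identical copies the probe may also bind, differed by 9.22 ± 0.96 with 1 of 2 DU145 arrays measured, and was at least 404-fold higher in the second design.

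The 12 genes with the largest differences toward DU145 included CTNNA1, UCHL1, XAGE1A and NKX2-1. UCHL1, a neuronal ubiquitin hydrolase, had levels of 7.18 and 7.56 in DU145 against -6.82, -6.52 and -6.75 in PC3 in the first design. The second design gave 7.90 and 7.89 against -2.34 and -1.79. The lines did not overlap, and the PC3 arrays of the second design were the PC3 arrays on which UCHL1 was well above background. The first design gave at least 4288-fold higher in DU145, and the second a difference of -9.96 ± 0.22. XAGE1A, a cancer-testis antigen with near-identical copies, was at least 657-fold and at least 521-fold higher in DU145. The cancer-testis genes CT83 and DDX43 were at least 84-fold and 102-fold higher in the first design and at least 75.5-fold and 95.6-fold higher in the second. NKX2-1, the homeobox factor of lung and thyroid, was at least 152-fold and at least 122-fold higher in DU145. The levels of NKX2-1 were 3.07, 2.04, 2.41 and 2.45 on the 4 DU145 arrays and lay between -7.08 and -5.44 on the 7 PC3 arrays. TNFRSF10D, a decoy receptor of the death ligand TRAIL, was at least 96.1-fold and at least 88.8-fold higher in DU145. KAT2A, a histone acetyltransferase, was at least 154-fold and at least 249-fold higher, and PARP6, an ADP-ribosyltransferase, at least 112-fold and at least 171-fold. FAM83G was at least 175-fold and at least 343-fold higher, and PRXL2A at least 128-fold and at least 155-fold. The splicing factor gene CELF2 differed by -8.43 ± 0.45 in the first design, where 1 of 5 PC3 arrays measured it, and was at least 143-fold higher in DU145 in the second.

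The genes whose status in these lines is known were set apart from the rest. They were chosen for what is known of these lines, and their direction is no independent evidence. CTNNA1, which encodes alpha-catenin and links cadherins to actin, had levels of -6.83, -6.99 and -6.03 in PC3 against 3.40 and 3.03 in DU145 in the first design. The second design gave -6.46 and -6.37 against 4.53 and 4.11. One of the 7 PC3 arrays, that of the miR-23b experiment, was well above background, at -4.62. The difference was -9.84 ± 0.37 in the first design, and CTNNA1 was at least 454-fold higher in DU145 in the second, with both of its probes called.

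CDKN2A, which encodes the cell cycle inhibitor p16 and ARF, was present in both lines. Its levels were 4.29, 3.43 and 4.50 in PC3 against 6.43 and 5.79 in DU145, and 3.72 and 3.39 against 6.42 and 6.38 in the second design. All DU145 arrays lay above all PC3 arrays, with differences of -2.04 ± 0.41 and -2.85 ± 0.17. RB1 and STK11 were well above background on all 11 arrays and did not pass the call. The differences of RB1 were -0.32 ± 0.27 and -0.61 ± 0.12, and those of the kinase gene STK11 0.66 ± 0.26 and 0.42 ± 0.14. Without the DU145 array of the genistein experiment, limma's adjusted p in the first design was 0.0935 for CDKN2A, which was not called.

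**Figure D2:**
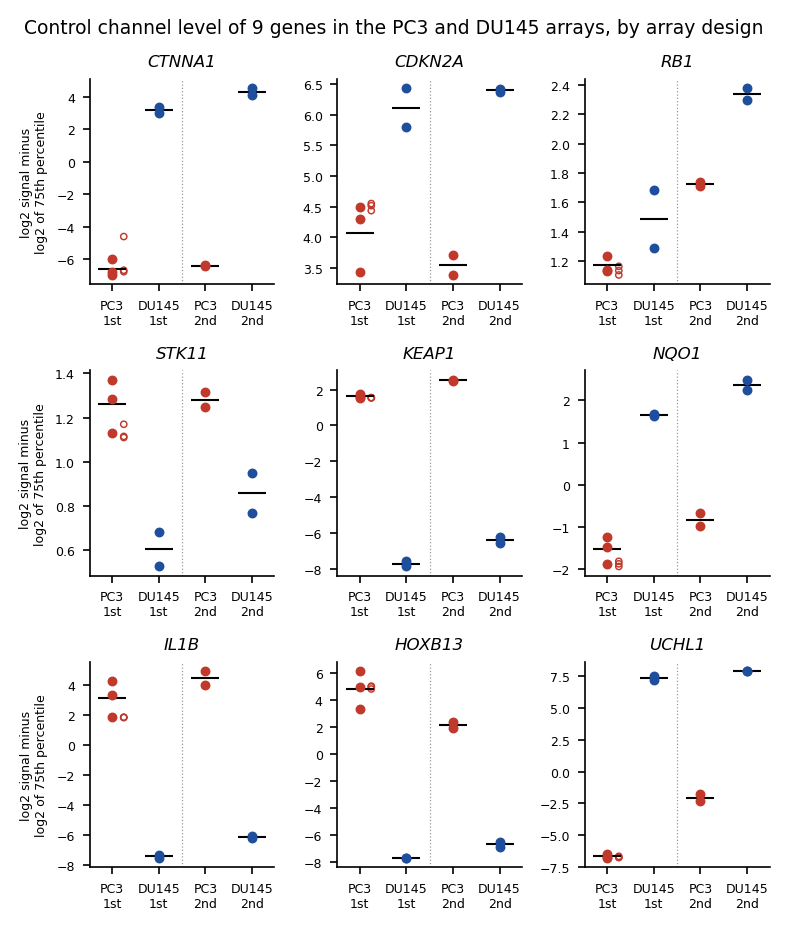
Level (log2 signal minus log2 of the 75th percentile) of 9 genes in PC3 (red) and DU145 (blue) in the first and second design; each filled point is 1 sample, open points are the 3 arrays of the shared control, whose mean is a filled point, and the line is the mean of the samples. For CTNNA1, KEAP1, IL1B, HOXB13 and UCHL1 the lines lie far apart in both designs, while RB1 and STK11 differ by less than 1.

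The genes beside CTNNA1 were then read along the chromosome, by the positions of their probes on hg19. SIL1, EGR1 and SNORA74A were singled out after their values were seen. The probe of CTNNA1 lies at chr5:138270387-138270446. The next tested gene was SIL1, which encodes a nucleotide exchange factor of the endoplasmic reticulum. Its levels were -7.00, -6.38 and -6.69 in PC3 against -1.04 and -0.39 in DU145, and -5.06 and -5.35 against 0.24 and 0.33 in the second design. No PC3 array was well above background, and SIL1 was at least 15.8-fold and at least 27.6-fold higher in DU145. HSPA9 on the other side differed by -0.38 ± 0.44 and -0.39 ± 0.15 and was not called. EGR1, an immediate early transcription factor 3 tested genes away, differed by -3.27 ± 0.26 in the second design and was at least 61.7-fold higher in DU145 in the first. The small nucleolar RNA gene SNORA74A differed by -1.67 ± 0.34 and -1.29 ± 0.14.

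**Figure D3:**
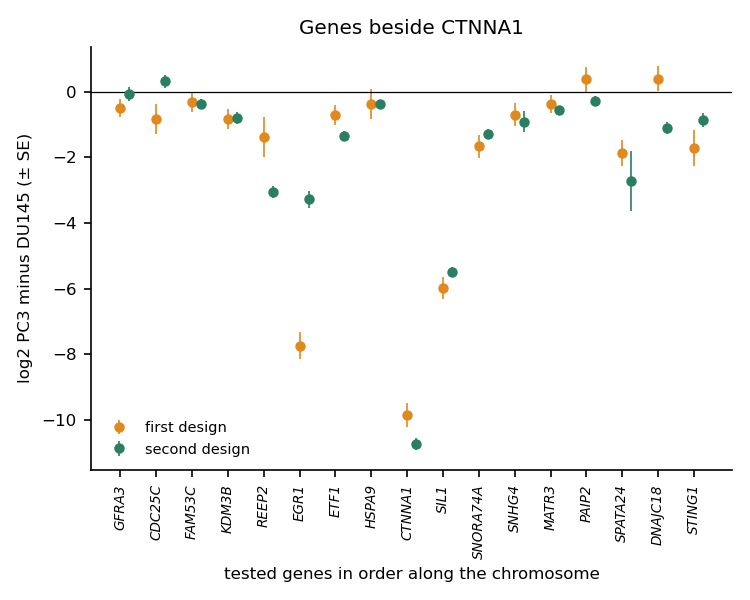
Log2 difference PC3 minus DU145 (± SE) of the tested genes on each side of CTNNA1, in their order along the chromosome, in the first design (orange) and the second (green). SIL1, next to CTNNA1, lies below -5 in both designs, while HSPA9 on the other side lies above -1.

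Chromosomes differed in the share of genes called, and those given here were chosen after their values were seen. On chromosome 9, 15% of 614 tested genes were higher in DU145 and 2.28% in PC3, with a median difference of -0.69 in both designs. On chromosome 15, 11.6% were higher in DU145 and 3.47% in PC3. Chromosome 8 had large shares both ways, 13.3% higher in DU145 and 10.1% in PC3. On chromosome X, 13.9% of 476 tested genes were higher in PC3 and 5.04% in DU145, with medians of 0.65 and 0.58. These shares stand beside 6.81% and 6.16% of all genes, and were given no test.

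Adhesion genes divided between a mesenchymal list and an epithelial list. Of 25 tested mesenchymal genes and factors of epithelial-mesenchymal transition, 9 were higher in PC3 and 3 in DU145 (48.0%, against 13.0% of all genes). The median of the list was 0.96 in the first design and 1.19 in the second. CDH2, which encodes N-cadherin, had levels of 1.26, 3.28 and 2.54 in PC3 against -6.15 and -6.26 in DU145, and of 3.30 and 3.02 against -4.50 and -5.29 in the second design. PC3 was above DU145 on every array, with a difference of 8.56 ± 0.58 in the first design and at least 181-fold in the second. CDH11, which encodes OB-cadherin of bone and mesenchyme, was at least 309-fold and at least 37.5-fold higher in PC3. The secreted glycoprotein FSTL1 differed by 6.12 ± 0.56 and 6.86 ± 0.17, and the fibronectin gene FN1 was at least 5.07-fold and at least 11.5-fold higher in PC3. In the other direction TGFBI, a matrix protein induced by TGF-beta, differed by -8.29 ± 1.27 and -3.35 ± 0.29. TAGLN, an actin-binding protein, differed by -4.06 ± 0.59 and -2.54 ± 0.29. TWIST2, a transcription factor, differed by -1.55 ± 0.35 and was at least 44-fold higher in DU145 in the second design. Its call in the first design was lost without the PC3 array of the miR-145 experiment (limma adjusted p = 0.0653) or without either DU145 array (0.125 and 0.0678) or the shared control sample (0.0912). LOXL2 and TNC did not differ past their spread in the first design, at -0.12 ± 0.47 and 0.12 ± 0.54.

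Of 33 tested epithelial genes of junctions and splicing, 0 were higher in PC3 and 2 in DU145 by limma in both designs (6.06%, against 13.0% of all genes). The same 2 had an unadjusted limma p under 0.05 in both in 1 direction. One of them, the desmosomal cadherin gene DSG2, differed by -2.10 ± 0.29 and -2.41 ± 0.15. Among 13 keratins, only KRT81 was called (7.69%, against 13.0% of all genes). It differed by 3.24 ± 0.54 and 4.27 ± 0.23, and its probe may bind other hair keratins. It was not called without the shared control sample. KRT19 was nearly equal in both lines, at -0.01 ± 0.36 and -0.03 ± 0.25.

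**Figure D4:**
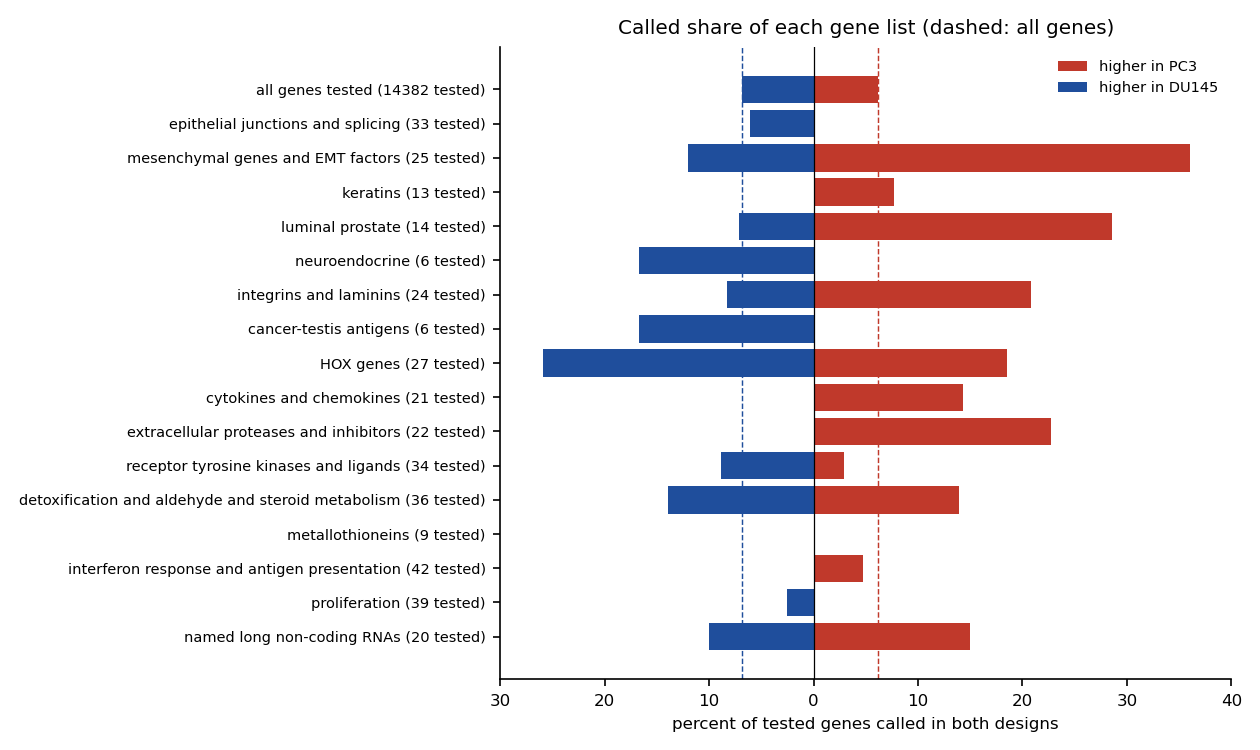
Percent of the tested genes of each list that were called higher in PC3 (red, to the right) and higher in DU145 (blue, to the left) in both designs; dashed lines give the shares over all 14382 tested genes. The mesenchymal and HOX lists drawn have the largest called shares in all, 48.0% and 44.4%, and 0 of 9 metallothioneins were called. These shares include genes that passed the filter through 1 line alone. Among genes well above background on all 11 arrays they were 38.9% and 29.4%, against 9.14% of all such genes. For detoxification, lncRNAs and luminal prostate they were 26.7%, 26.3% and 22.2%. For proteases, integrins with laminins, and cytokines they were 12.5%, 11.1% and 0%.

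The 2 designs gave different line differences for part of the genes. A limma test of the difference between designs, added after both fits had been seen, called 273 of 14382 genes (1.9%), of which 191 (1.33%) had a higher and 82 (0.57%) a lower PC3 minus DU145 difference in the second design. For 103 of the 273 a line had no array well above background in a design, and the size of their difference was not measured. In the epithelial list 11 of 33 genes were higher and 0 lower. In the mesenchymal list 1 was higher and 5 were lower, in the keratins 4 of 13 were higher, and in the protease list 4 of 22 were higher and 1 was lower. The genes named in the following lines were chosen after their values were seen. CDH1, which encodes E-cadherin, had levels of -0.56, -2.35 and -0.60 in PC3 against 2.54 and 2.29 in DU145 in the first design. In the second design its levels were 4.13 and 3.58 in PC3 against 3.31 and 2.87 in DU145. PC3 was below DU145 on every array of the first design and above it on every array of the second. The designs differed by 4.35 ± 0.78 in the line difference (limma adjusted p = 0.0378). Levels of the designs come from separate scalings and are set side by side only.

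GRHL2, a transcription factor that maintains epithelial genes, had levels of -3.96, -5.88 and -5.90 in PC3 and -4.96 and -5.43 in DU145 in the first design, where the lines overlapped and 1 of 5 PC3 arrays was well above background. In the second design its levels were 0.71 and 0.42 in PC3 against -6.54 and -6.12 in DU145, which had no array well above background, so that GRHL2 was at least 30.5-fold higher in PC3 there. ESRP1, an epithelial splicing regulator, was called in opposite directions, at -2.45 ± 0.54 and 2.35 ± 0.14. KRT6A had levels of -6.45, -6.79 and -6.65 in PC3, none well above background, against -4.29 and -4.60 in DU145 in the first design, and 1.69 and 2.33 against -3.62 and -3.64 in the second. KRT6A was at least 1.19-fold higher in DU145 in the first design and differed by 5.64 ± 0.25 toward PC3 in the second. VIM, the mesenchymal intermediate filament vimentin, went the other way. Its levels were 6.40, 6.77 and 6.15 in PC3 and 6.03 and 7.26 in DU145 in the first design, which overlapped, and 2.39 and 2.99 in PC3 against 7.20 and 7.04 in DU145 in the second. ZEB1, a repressor of E-cadherin, had levels of 0.39, 1.05 and 1.12 in PC3 and -1.16 and 0.58 in DU145 in the first design. Those of the second design were -3.48 and -2.57 in PC3 against 0.90 and 1.13 in DU145.

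The treated channels of the second design gave PC3 levels near those of the control channels, at 3.85 and 3.56 for CDH1 and 0.44 and 0.63 for GRHL2. The test between designs was also run on the treated channels, without the 3 arrays of the shared control. It did not call CDH1, ESRP1, GRHL2, ZEB1, CLDN7 or EPCAM (limma adjusted p of 0.05035 to 0.321). VIM and KRT6A were called there (0.0292 and 0.0397 by limma). Of the 58 genes called in opposite directions, 47 were higher in PC3 in the second design, among them ST14, AP1M2, MARVELD3, OVOL2 and KDF1, all known in epithelial differentiation or junctions. The other 11 included NTSR1, a neurotensin receptor. Some list members that did not pass the filter in both designs also parted, and were not tested. KRT6B had a mean PC3 level of 4.44 in the second design and was well above background on no other array, while LINC00261 and HSD17B2 had mean PC3 levels of 2.23 and 0.26 in the first design and were well above background on no array of the second. The slide, the array design and the experiment changed together between the designs and cannot be told apart. Whether both designs used the same stock and culture of PC3 is not given in the sources used here, so a PC3 value holds for the cells of its design. With 1 array left out, the test called between 50 and 576 genes, with 50 without the DU145 and 73 without the PC3 array of the si-GOLM1 experiment, 107 and 88 without those of the miR-143 experiment, and 466 without the PC3 and 576 without the DU145 array of the miR-145 experiment. In the epithelial list it called 2 to 12 genes higher, with 2 without the DU145 array of the si-GOLM1 experiment, and 4 or 5 without any other 1 of the second design. Without any 1 array of the second design it called 2 or 3 mesenchymal genes lower, 1 or 2 keratins higher and 1 protease gene higher. CDH1 was not called without the shared control sample, the DU145 genistein array or any 1 array of the second design (limma adjusted p of 0.0565 to 0.168), nor VIM without the DU145 or PC3 array of the miR-143 or the DU145 array of the si-GOLM1 experiment (0.0601 to 0.0715). ZEB1 lost the call without the shared control sample or any 1 array of the second design (limma adjusted p of 0.0535 to 0.0952). ESRP1 lost it without the DU145 genistein array or any 1 array of the second design (limma adjusted p of 0.0522 to 0.0852). GRHL2 and KRT6A kept the call with any 1 sample left out, but neither was called before dye normalization (limma adjusted p = 0.3482 and 0.1515).

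**Figure D5:**
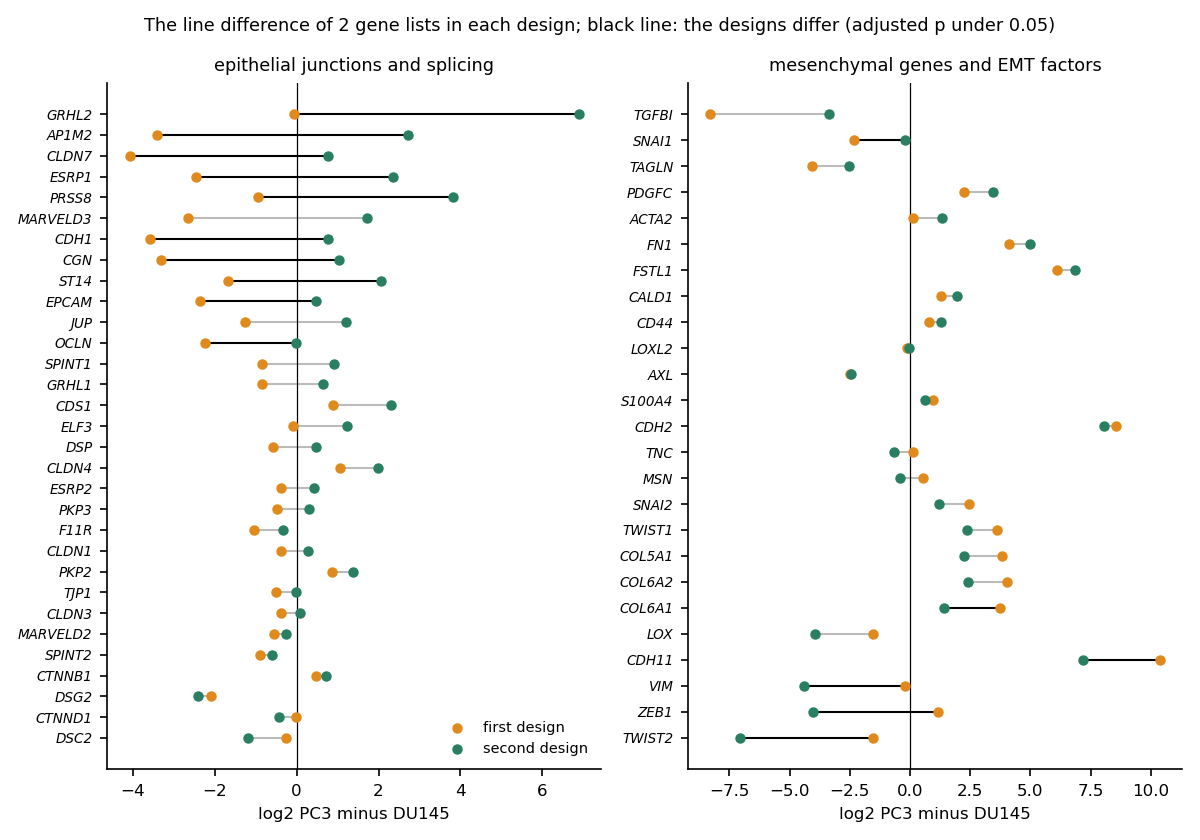
Log2 difference PC3 minus DU145 of 31 of the 33 tested genes of the epithelial list (left) and the 25 of the mesenchymal list (right) in the first design (orange) and the second (green); a black line joins the points where the difference between designs had an adjusted p under 0.05. Of the epithelial genes drawn, all 10 black lines run toward PC3 in the second design, while in the mesenchymal list 5 of 6 run toward DU145; GRHL2, TWIST2 and CDH11 had a line with no array well above background in a design, and the length of their lines is not a measured size.

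HOX genes set the identity of tissues along the body axis and lie in 4 clusters. Of 27 tested HOX genes, 5 were higher in PC3 and 7 in DU145 (44.4%, against 13.0% of all genes). Of the 17 well above background on all 11 arrays, 5 (29.4%) were called, against 9.14% of all such genes. In the HOXA cluster 4 of 10 tested genes were higher in PC3 and 0 in DU145. In HOXB 1 of 9 was higher in PC3 (HOXB13) and 3 in DU145, in HOXC 0 and 2 of 6, and in HOXD 0 and 2 of 2. Other HOXD genes did not pass the filter in both designs and were not tested. Among them HOXD3 was well above background on 5 PC3 and 0 DU145 arrays of the first design and on 0 of the second. HOXD13 was well above background on 1 PC3 array of the first design, 2 of the second and 0 DU145 arrays. HOXA9 had levels of 2.48, 2.45 and 2.92 in PC3 against -1.35 and -1.23 in DU145, and of 3.27 and 3.46 against -0.51 and -0.26 in the second design. The differences were 3.90 ± 0.29 and 3.75 ± 0.16 for HOXA9 and 4.85 ± 0.73 and 3.90 ± 0.42 for HOXA13, with no overlap of the lines. HOXB8 was well above background on all 4 DU145 arrays and no PC3 array, at least 4.29-fold higher in both designs. HOXB7, HOXD1 and HOXC10 were likewise measured only in DU145, with bounds of 2.55-fold to 3.48-fold. HOXC4 and HOXA5 did not pass the call, at 0.15 ± 0.34 and 0.11 ± 0.62 in the first design. With 1 sample left out, 4 or 5 HOX genes were higher in PC3 and 6 or 7 in DU145.

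HOTAIR, the lncRNA the study followed, lies within the HOXC cluster. Of 5 reverse-strand probes of its interval on both designs, 4 were tested and 0 were called in both by limma, with 0 at an unadjusted p under 0.05 in both. The brightest probe, at chr12:54356096-54356155, had levels of -0.37, -0.53 and 0.15 in PC3 and 0.19 and -0.07 in DU145 in the first design. Those of the second design were 0.95 and 0.67 in PC3 and 0.34 and 0.42 in DU145. The lines overlapped in the first design, and the differences were -0.31 ± 0.32 and 0.43 ± 0.16. The next probes, starting at 54356419 and 54356620, differed by 1.73 ± 0.16 and 1.94 ± 0.17 in the second design (limma adjusted p = 0.00275 and 0.00248) and by -0.57 ± 0.68 and -0.64 ± 0.74 in the first. The probe named HOTAIR was not tested in the first design, since it was well above background on 0 of 5 PC3 and 1 of 2 DU145 arrays there. In the second design its levels were -3.44 and -3.14 in PC3 against -6.68 and -6.29 in DU145, at least 2.11-fold higher in PC3.

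Of 20 tested named lncRNAs, 3 were higher in PC3 and 2 in DU145 (25%, against 13.0% of all genes). GAS5 and SNHG5, both hosts of small nucleolar RNAs, were higher in DU145. The levels of SNHG5 were 5.93 and 6.40 in DU145 against 2.32, 2.90 and 2.50 in PC3, and 6.57 and 6.69 against 3.50 and 3.74 in the second design. All 18 tested probes of SNHG5 were called, with a difference of -3.59 ± 0.32 and -3.01 ± 0.15 for its brightest. GAS5 differed by -2.07 ± 0.33 and -2.17 ± 0.13. HOXA11-AS, an antisense RNA of the HOXA cluster, was higher in PC3 by 3.16 ± 0.68 and 3.76 ± 0.34. KCNQ1OT1 differed by 3.73 ± 0.44 and 1.68 ± 0.30 and DANCR by 1.12 ± 0.30 and 1.72 ± 0.13. The calls of these 3 were lost with 1 sample left out (limma adjusted p up to 0.0921, 0.0508 and 0.168), for HOXA11-AS without the PC3 genistein or the DU145 miR-145 array or the shared control sample, for KCNQ1OT1 without the PC3 si-GOLM1 array, and for DANCR without any 1 of the PC3 and DU145 arrays of the genistein and miR-145 experiments or the shared control sample. PVT1 and MIR22HG differed by at most 0.30 in size in both designs.

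Among 353 lincRNA probes named only by an interval, 18 (5.1%) were higher in PC3 and 18 (5.1%) in DU145. The largest toward PC3 lay in chr10:54210637-54215032, with levels of -2.19, -1.66 and -0.21 in PC3 against -7.23 and -7.74 in DU145, and of 1.09 and 0.49 against -6.80 and -6.44 in the second design. It was well above background on all 7 PC3 arrays and no DU145 array, at least 18.8-fold and at least 35.6-fold higher. The next were chr16:80631802-80632239 and chrX:139791944-139854842. Toward DU145 the largest lay in chr10:103459185-103464735, at least 8.07-fold and at least 11.9-fold higher, followed by chr10:6780318-6780905 and chr3:164924749-165209054.

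Of 21 tested cytokines and chemokines, 3 were higher in PC3 and 0 in DU145 (14.3%, near the 13.0% of all genes). Besides IL1B these were CXCL6, which attracts neutrophils, at 4.48 ± 0.66 and at least 16.2-fold, and CCL26, an eosinophil chemokine, at 4.19 ± 0.66 and at least 7.57-fold. Of 22 tested extracellular proteases and inhibitors, 5 were higher in PC3 and 0 in DU145 (22.7%, against 13.0% of all genes). In DU145, 1 was higher without the PC3 array of the miR-143 experiment. Of the 16 protease list genes well above background on all 11 arrays, 2 (12.5%) were called, near the 9.14% of all such genes. PLAT, which encodes tissue plasminogen activator, had levels of 3.23, 2.27 and 1.22 in PC3 against -3.13 and -4.84 in DU145, and of 2.85 and 2.72 against -5.59 and -5.41 in the second design. PC3 lay above DU145 on every array. ADAMTS1, an extracellular metalloprotease of the ADAMTS family, differed by 5.56 ± 0.58 and was at least 4.97-fold higher in the second design. The proteoglycan gene SPOCK1 differed by 6.10 ± 0.45 and 3.94 ± 0.16. SERPINB5, which encodes maspin, differed by 2.11 ± 0.44 and 3.23 ± 0.15, and its adjusted p in the first design was 0.0718 and 0.0844 without either DU145 array and 0.0818 without the shared control sample. TIMP2 and MMP14 differed by 0.50 or less in both designs.

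Genes of detoxification divided evenly, with 5 of 36 higher in PC3 and 5 in DU145 (27.8% in all, against 13.0% of all genes). NQO1 and GCLC, which encode a quinone reductase and the catalytic subunit of glutathione synthesis, were higher in DU145. The levels of NQO1 were 1.68 and 1.64 in DU145 against -1.48, -1.24 and -1.88 in PC3, and 2.49 and 2.24 against -0.99 and -0.66 in the second design. The lines did not overlap, with differences of -3.19 ± 0.30 and -3.19 ± 0.19. GCLC differed by -2.09 ± 0.46 and -1.96 ± 0.13, while GCLM, the regulatory subunit, was not called at -0.34 ± 0.27 and -0.25 ± 0.13. The aldose reductase gene AKR1B1 differed by -5.80 ± 0.31 and -4.04 ± 0.22, and the fatty acid hydroxylase CYP4F11 was measured only in DU145, at least 4.4-fold and at least 5.56-fold higher. Higher in PC3 were CBR3, a carbonyl reductase, at 1.69 ± 0.27 and 1.83 ± 0.20, and ALDH1A3, a retinaldehyde dehydrogenase, at 2.21 ± 0.41 and 3.46 ± 0.16. MGST2 and UGT1A6 differed by 1.77 ± 0.38 and 1.78 ± 0.42 in the first design, and the UGT1A6 probe may bind other UGT1A transcripts. Without the DU145 genistein array the limma adjusted p in the first design was 0.116 for GCLC, 0.0689 for ALDH1A3 and 0.113 for UGT1A6. Without the DU145 miR-145 array it was 0.104 for MGST2 and 0.103 for UGT1A6, and without the PC3 genistein array 0.0597 for GCLC, 0.057 for MGST2 and 0.0779 for UGT1A6. Without the shared control sample it was 0.0734 for GCLC, 0.086 for MGST2 and 0.108 for UGT1A6. UGT1A6 was also not called without either PC3 array of the second design (0.169 and 0.1 by limma there). With 1 sample left out, 2 to 5 genes of the list were higher in PC3 (2 without the PC3 genistein or DU145 miR-145 array or the shared control sample) and 3 to 5 in DU145 (3 without the DU145 genistein array or the shared control sample).

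Of 14 tested luminal prostate genes, 4 were higher in PC3 and 1 in DU145 (35.7%, against 13.0% of all genes). Besides HOXB13 these were TMPRSS2, a membrane protease, at 3.73 ± 0.86 and 2.29 ± 0.17, SLC45A3 (prostein) at 1.92 ± 0.46 and 2.66 ± 0.18, and the ETS factor SPDEF at 3.47 ± 0.48 and 1.43 ± 0.31. FKBP5, a chaperone that glucocorticoids induce, differed by -3.25 ± 0.49 and -1.89 ± 0.17. KLK3, which encodes prostate-specific antigen, was near the lowest measured signal in both lines and not called, at -0.44 ± 0.31 and -0.17 ± 0.23. Without either DU145 array of the first design or the shared control sample 2 of the list were higher in PC3, and the limma adjusted p there was 0.0876 to 0.11 for TMPRSS2 and 0.0961 to 0.12 for SLC45A3. SLC45A3 was also not called without the PC3 genistein array (0.0663 by limma), nor SPDEF without the PC3 miR-143 or the DU145 si-GOLM1 array (0.0705 and 0.0825). FOLH1, a luminal marker, was well above background on 4 of 5 PC3 arrays of the first design and 0 of 2 of the second, and was not tested.

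Of 24 tested integrins and laminins, 5 were higher in PC3 and 2 in DU145 (29.2%, against 13.0% of all genes). Of the 18 well above background on all 11 arrays, 2 (11.1%) were called, near the 9.14% of all such genes. The laminin chain LAMA4 was at least 16.9-fold and at least 9.42-fold higher in PC3, and LAMB1 differed by 2.60 ± 0.37 and 2.91 ± 0.19, each with 1 of 2 tested probes called. LAMA1 went the other way, at least 32.6-fold higher in DU145 in the first design and -4.64 ± 0.26 in the second. The integrin genes ITGB8 and ITGA1 were higher in PC3, at 4.77 ± 0.97 and 3.85 ± 0.85 in the first design, and ITGB3 was higher in DU145, at -3.47 ± 0.64 and -2.23 ± 0.17. These 3 calls were lost without the DU145 array of the miR-145 experiment (limma adjusted p = 0.0706, 0.0963 and 0.0582), and 3 genes of the list were then higher in PC3. ITGA1 was also not called without the DU145 genistein array (0.0665 by limma), and ITGB8 and ITGA1 without the shared control sample (0.085 and 0.0833), where 2 genes of the list were higher in PC3. ITGAV and LAMA5 differed by at most 0.29 in size.

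Of 34 tested receptor tyrosine kinases and ligands, 1 was higher in PC3 and 3 in DU145 (11.8%, near the 13.0% of all genes). Without the PC3 array of the miR-145 experiment 3 were higher in PC3, and without that of the genistein experiment 2. EREG, which encodes the EGF receptor ligand epiregulin, had levels of 0.04 and 1.70 in DU145 against -5.43, -4.87 and -5.26 in PC3, and of 1.58 and 1.97 against -3.77 and -3.88 in the second design. The lines did not overlap. FGFR3 was measured only in DU145, at least 5.66-fold and at least 7.33-fold higher, and IGF1R differed by -2.19 ± 0.37 and -1.83 ± 0.37. VEGFC, a ligand of lymphatic vessel growth, differed by 2.57 ± 0.47 and 2.08 ± 0.23. EGFR differed by -0.40 ± 0.55 and -0.01 ± 0.13 and was not called. VEGFC lost its call without the DU145 genistein array (limma adjusted p = 0.0656) and IGF1R without either PC3 array of the second design (0.0733 and 0.0816).

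Other groups held few called genes. Of 39 tested proliferation genes, 1 was called (2.56%, against 13.0% of all genes). It was TOP2A, at -1.77 ± 0.43 and -1.68 ± 0.17, while CDK4 was level at 0.04 ± 0.38 and 0.07 ± 0.14. TOP2A lost its call without the PC3 or DU145 genistein or the DU145 miR-145 array (limma adjusted p = 0.054, 0.0885 and 0.131) or the shared control sample (0.0504). Of 42 interferon response and antigen presentation genes, 2 were higher in PC3 and 0 in DU145 (4.76%, against 13.0% of all genes), with 4 higher in PC3 without the shared control sample and 1 without either DU145 array of the first design. IFI44L, an interferon-stimulated gene, differed by 5.68 ± 0.46 and 6.51 ± 0.34, and the RNA sensor gene RIGI by 2.34 ± 0.44 and 3.24 ± 0.25, with adjusted p of 0.0606 and 0.0545 in limma without either DU145 array of the first design. The median of the interferon list was -0.60 in the first design and 1.18 in the second. Of 9 tested metallothioneins 0 were called by limma, and 0 had an unadjusted p under 0.05 in both designs in 1 direction, while 1 was called without the PC3 array of the miR-143 experiment. Of 6 tested neuroendocrine genes UCHL1 alone was called, with 1 more without either DU145 array of the second design, and of 6 tested cancer-testis antigens XAGE1A alone. Each is 16.7% of its list, beside 13.0% of all genes.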

How the data were processed

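The authors hybridized control RNA (Cy3) and treated RNA (Cy5) to each Agilent array and deposited the Feature Extraction 10.7.3.1 scanner output, whose intensity values per spot had been corrected for background and dye by that software. The control intensity (gProcessedSignal) was used here. Control spots and outlier flags were left out. Each array was scaled as log2 minus log2 of its 75th percentile, spots of a probe were averaged, and a probe was tested if well above background in at least 0.5 of its spots on every sample of 1 line. Of 35649 probes shared by both designs, 29680 were matched to RefSeq genes through the reference tables, and 134 of chromosome Y or XIST were left out. Probe coordinates are those of the array annotation on hg19. A gene was represented by its brightest tested probe, and a gene measured by several probes is described with their number where they disagreed.

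The designs were fitted apart with limma 3.58.1 in R 4.3.3, with Benjamini-Hochberg adjustment over all tested probes. Tables and figures were made in Python 3.11.15. The 3 PC3 controls taken to share RNA, which no label states, were averaged. The authors' series value tables and log ratios were not used here. Named genes were the 12 largest in each direction by the smaller of both differences, the genomic status list, up to 4 called members in each direction and 2 flat members of each of the other gene lists, the HOTAIR probes, the cell type markers and 3 lincRNA intervals in each direction. Some of these are not reported here. Further genes are said to be chosen after their values were seen. The members and lists were chosen with earlier results of these data known. The method was tested on simulated data of 21732 probes, where a log2 difference of 2 was recovered in both designs for 82 of 200 probes, one of 3 for 114 of 200, and 0 of 20932 unchanged probes were called. The number of arrays limits the precision. Deviations of the arrays of 1 experiment correlated by 0.466 (first design) and 0.044 (second), and with 2 pairs a design were not taken as pairs. Alternatives covered background correction, dye normalization, scaling, filters, the shared control, the treated channel, the limit on the difference, the experiment as a block, and each array left out.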

Additional observations from a re-analysis of the deposited data

Results flagged for a closer look

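The PC3 minus DU145 difference of 22 genes of the gene lists differed between the array designs by limma's test of that difference, with an adjusted p under 0.05. The differences below are log2, second design minus first. Among the epithelial genes they were AP1M2 by 6.14, CLDN7 by 4.85, ESRP1 by 4.79, PRSS8 by 4.77, CDH1 by 4.35, CGN by 4.34, ST14 by 3.75, EPCAM by 2.82 and OCLN by 2.21. Among the keratins they were KRT80 by 3.09 and KRT8 by 2.27. Among the mesenchymal genes the line difference moved toward DU145 in the second design, with ZEB1 by -5.18, VIM by -4.22 and COL6A1 by -2.33, and toward PC3 for SNAI1 by 2.13. Among the extracellular proteases and inhibitors the differences were CST6 by 7.63, SERPINA1 by 4.94, MMP15 by 3.80 and TFPI by -2.21. Of the remaining genes, CYP1B1 by 5.39 and IL1RN by 4.53 had a higher line difference in the second design. The difference was lower for MIR31HG by -2.22. CDH1, ESRP1, ZEB1, VIM, CLDN7 and EPCAM each lost this call with at least 1 single array left out. Of the 22 genes only these were checked in this way gene by gene. Another 9 genes (GRHL2, TWIST2, CDH11, KRT6A, KRT14, KLK8, UCHL1, MERTK and SYT1) passed the same test, but a line had no array well above background in a design, and the size of the difference was not measured. In the second design the PC3 control and treated channels of an array differed by less than 1 in the levels of CDH1, GRHL2 and VIM, while in the first design the treated channel had lower CDH1 than the control channel by more than 1 on the miR-23b and miR-27b arrays. The experiment, slide and array design changed together and cannot be told apart.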

How the results depend on the processing

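No gene was called the other way in any alternative, and 24 of 82 called named genes lost the call with 1 sample left out, the shared control included. With 1 other sample left out, 1232 to 1831 genes were called in both designs (552 to 869 higher in PC3, 651 to 986 in DU145), 2873 to 3958 probes in the first design, 7075 to 7434 in the second, and 50 to 576 genes between designs. Without the shared control sample 1200 genes were called (552 and 648), with 2562 probes in the first design, and 16 called named genes lost the call, among them TWIST2, KRT81, TMPRSS2, SLC45A3, ITGB8, ITGA1, SERPINB5, UGT1A6, MGST2, GCLC, TOP2A, HOXA11-AS and DANCR. Normexp background correction gave 620 genes higher in DU145 and 2945 and 3572 probes in the 2 designs. Signals before dye normalization gave 945 genes (504 and 441), 2121 probes in the first design and 148 genes between designs. The treated channel gave 691 genes (279 and 412), 1317 probes and 75 genes between designs, though it holds treated RNA. Probes above background in both lines gave 1167 genes, 538 higher in DU145, and 2929 probes in the first design, with fewer tested. A limit of 2 on the difference gave 867 genes (397 and 470) and 2515 and 2985 probes, and no limit gave 12337 probes in the second design. With the experiment as a replicate block, fitted over both designs at once, 3454 genes were called (1666 and 1788), of which 1864 were among the 1866. The main counts were 1866 genes (886 and 980), 4590 and 7342 probes and 273 genes between designs. The first design had 5 samples, and a log2 difference of 2 was recovered there for 98 of 200 simulated probes against 160 of 200 in the second. The cause of the changes between settings was not tested.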
